A study of Mus musculus with 13 samples.

Results

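The immunoglobulin genes, which encode the chains of antibodies, were described in RNA libraries of leptin receptor positive, lineage-negative cells sorted from tissue around tibia implants of mice. Members were the genes whose symbol begins with Ighv, Igkv, Iglv, Iglc or Ighg, or equals Igkc, Ighm, Ighd, Igha, Ighe or Jchain. Of the 23211 genes in the deposited matrix, 201 were members. They comprised 92 heavy chain V genes, 93 kappa V genes, 3 lambda V genes and 13 others, namely Igkc, Iglc1 to Iglc4, Ighm, Ighd, Ighg1, Ighg2b, Ighg2c, Ighg3, Igha and Jchain.

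The 13 libraries fell into 2 groups. There were 7 from fibrous tissue around implants labelled PMMA and 6 from bone around implants labelled Pressfit, and the labels give no genotype, strain, age or time. Libraries are called fibrous 1 to 7 and bone 1 to 6, in accession order. The names fell into the series L002 (fibrous 1 to 5 and bone 1 to 4) and XY9274 (fibrous 6 and 7, bone 5 and 6), and those of fibrous 5, bone 3 and bone 4 held the token Lin. The labels do not say that libraries came from separate animals, so p-values reflect the library to library spread alone, and that spread may be technical.

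Totals ran from 18056208 to 44302166 counts in fibrous libraries and from 16162321 to 43217004 in bone libraries, with 14644 to 20146 genes detected. Lepr, the sort marker, was under 1 normalised CPM (CPM with library sizes scaled by TMM factors) in fibrous 1 and 5 and bone 3 and 4, and at 2.42 in bone 5, against 46.7 to 804 in the other libraries. Those low libraries go against their label. The results below are therefore given with and without bone 5, or without fibrous 1 or the Lin-named libraries, where that matters.

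An antibody has heavy and light chains, each with a variable region, which binds antigen, and a constant region. Developing B cells in the bone marrow join 1 V gene to D and J segments for the heavy chain, and 1 V gene to a J segment for a kappa or lambda light chain. A B cell and its descendants thus transcribe mainly the V genes of their own antibody. The first constant region used is that of IgM, later exchanged by class switching for IgG, IgA or IgE, and plasma cells secrete the product in bulk. Stromal cells are not known to rearrange these genes.

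By the GENCODE M21 annotation of mm10, the heavy V members lie on chromosome 12 between 113572927 and 116000461, and their constant genes between 113254830 and 113422730. The kappa V members lie on chromosome 6 between 67555497 and 70704177, with Igkc at chr6:70726435-70726966 on the plus strand. The lambda genes lie on chromosome 16 between 19061618 and 19260859, and Jchain, outside these loci, at chr5:88519809-88527891 on the minus strand. Of the V members, 11 are annotated as pseudogenes.

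The repertoire results turn on 4 V genes, so the last 240 bases of their germline coding sequences are shown. Ighv11-2 (chr12:114048241-114048812, minus strand) and Igkv14-126 (chr6:67896172-67896642, plus strand) led bone 5. Ighv14-4 (chr12:114176438-114176867, minus strand) and Iglv1 (chr16:19085017-19085500, minus strand) led fibrous 7. They are printed 5′ to 3′ on the coding strand, from the GENCODE M21 transcripts. Capitals mark the last in-frame match to TANTNNTGT, searched on the coding strand, which in these genes encodes a tyrosine, then a phenylalanine or tyrosine, then the conserved cysteine at the end of the third framework. The motif was in frame in 139 of the 177 V members with an annotated coding sequence, or 78.5%.
Ighv11-2: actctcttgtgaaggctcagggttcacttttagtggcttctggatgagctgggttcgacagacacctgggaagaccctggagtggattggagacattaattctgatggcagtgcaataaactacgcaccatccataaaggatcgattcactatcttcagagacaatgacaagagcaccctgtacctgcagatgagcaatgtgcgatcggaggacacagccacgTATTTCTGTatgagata
Igkv14-126: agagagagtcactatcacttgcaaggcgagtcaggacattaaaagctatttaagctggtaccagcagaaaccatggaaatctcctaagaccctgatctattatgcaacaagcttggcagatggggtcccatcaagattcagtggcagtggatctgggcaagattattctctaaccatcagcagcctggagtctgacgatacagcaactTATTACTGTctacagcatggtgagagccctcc
Ighv14-4: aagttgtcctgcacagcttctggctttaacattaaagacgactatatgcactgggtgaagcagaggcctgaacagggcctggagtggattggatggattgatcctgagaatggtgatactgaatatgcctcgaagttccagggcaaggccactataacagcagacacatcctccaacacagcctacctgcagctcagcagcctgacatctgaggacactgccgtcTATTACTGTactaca
Iglv1: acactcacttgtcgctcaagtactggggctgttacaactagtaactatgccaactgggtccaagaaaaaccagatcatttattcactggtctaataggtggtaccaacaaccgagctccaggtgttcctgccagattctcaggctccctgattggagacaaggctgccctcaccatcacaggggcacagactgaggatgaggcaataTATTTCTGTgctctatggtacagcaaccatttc

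Some members are near copies, so reads could be split between them in ways the sources do not state. Each V member was compared with the other V members of its chain alone. The annotation lists 185 heavy and 160 kappa V genes, of which 92 and 93 are members, and the rest were not compared. Within the members, the nearest relative of Ighv11-2, Ighv4-1, was 76.3% identical to it, and Igkv14-126 was 91.5% identical to Igkv14-111. Ighv14-4 was 97.4% identical to Ighv14-1, and Iglv1 96.9% identical to Iglv2. Of the 188 V members, 84 had another member at least 95% identical, and the values of those genes are uncertain to that extent. Close relatives outside the matrix could make further genes uncertain.

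Iglc2 and Iglc3 were the closest lambda constant genes, 96.2% identical, whereas Iglc1 was 72.3% identical to Iglc2. The 120 coding bases in which Iglc2 and Iglc3 differ most, at the start of both genes, are shown with capitals at the 7 differing bases. Even in this stretch, little separates the 2 genes' reads. Iglc2 lies at chr16:19198396-19200351 and Iglc3 at chr16:19065230-19065681, both on the minus strand.
Iglc2: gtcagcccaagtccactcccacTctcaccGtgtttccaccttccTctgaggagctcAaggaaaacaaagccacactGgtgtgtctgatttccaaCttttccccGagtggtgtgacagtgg
Iglc3: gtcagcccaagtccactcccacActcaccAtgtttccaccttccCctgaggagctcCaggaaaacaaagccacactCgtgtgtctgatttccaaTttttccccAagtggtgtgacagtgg

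Immunoglobulin RNA was present in every library, and its amount varied far more between libraries than between groups. Members held 0.0103, 0.0190, 0.00549, 0.00676, 0.0567, 0.192 and 0.358% of the counts of fibrous 1 to 7. They held 0.00774, 0.224, 0.116, 0.0400, 3.18 and 0.0737% of the counts of bone 1 to 6. Bone 5 stood alone above all others, fibrous 3, fibrous 4 and bone 1 were lowest, and the groups overlapped. Haemoglobin genes, from red cells, took a median of 5.72% of counts in fibrous libraries and 7.03% in bone libraries, least in bone 5 (0.128%) and most in bone 4 (35.3%). Over the other counts the bone 4 immunoglobulin share was 0.0618%.

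**Figure D1:**
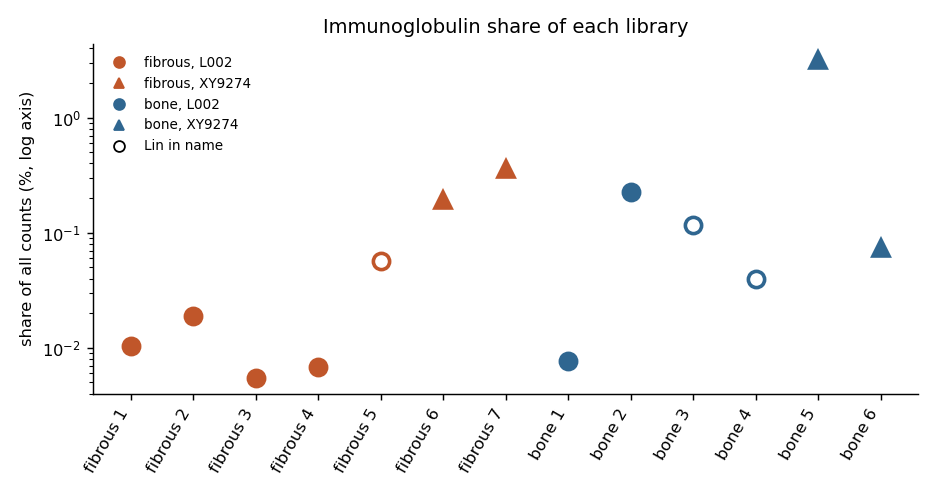
Share of all counts held by the immunoglobulin genes in each library, in percent on a log axis, with fibrous libraries left of bone libraries; circles are the L002 and triangles the XY9274 series, and open symbols the Lin-named libraries. Bone 5 lies at 3.18%, and the others lie between 0.00549% and 0.358%.

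The mean share was 0.0927 ± 0.135% in fibrous libraries (SD, n = 7) and 0.607 ± 1.26% in bone libraries (SD, n = 6). Bone 5 alone held 78.8% of all immunoglobulin counts of the series. The medians were 0.0190% in fibrous libraries and 0.0947% in bone libraries. Without its highest library each group had a lower mean, 0.0485 ± 0.0731% without fibrous 7 (SD, n = 6) and 0.0923 ± 0.0839% without bone 5 (SD, n = 5). Wilson 95% intervals on single shares were at most 0.00523 percentage points either side, and they cover counting error only, since reads copied by PCR are not independent molecules.

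The share also differed by name series. In the L002 series it averaged 0.0197% in fibrous libraries and 0.0969% in bone libraries. In XY9274 it averaged 0.275% in fibrous 6 and 7 (SD 0.117) and 1.63% in bone 5 and 6 (SD 2.20). The latter mean rests on bone 5, at 3.18%. Bone 6, at 0.0737%, was below fibrous 6, fibrous 7 and the L002 bone mean. In bulk RNA, fewer cells of a type and less RNA per cell cannot be told apart.

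Igkc, the constant region of kappa light chains, had 17.8, 20.5, 7.97, 14.7, 114, 264 and 169 normalised CPM in fibrous 1 to 7. In bone 1 to 6 it had 7.29, 845, 344, 158, 7035 and 233. Most bone libraries exceeded most fibrous ones, but bone 1 was the lowest of all 13, so the groups overlapped. The log2 fold change, fibrous over bone, was -3.53 (SE 1.01), with an adjusted p of 0.873 by edgeR's quasi-likelihood test with Benjamini-Hochberg adjustment. DESeq2 gave -3.57 and an adjusted p of 0.00571, and without bone 5 edgeR gave -2.78.

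Ighm, the constant region of IgM, had 76.7, 118, 27.2, 35.1, 369, 937 and 1232 normalised CPM in fibrous 1 to 7. It had 47.3, 475, 702, 280, 8744 and 221 in bone 1 to 6. Fibrous 6 and 7 exceeded every bone library but bone 5, and the groups overlapped. The log2 fold change was -1.73 (SE 0.82), with an adjusted p of 0.873 by edgeR, and -1.03 without bone 5.

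Jchain, the small protein that links IgM and IgA into polymers, had 0.195, 0.186, 0.0368, 0.162, 0.246, 0.190 and 91.4 normalised CPM in fibrous 1 to 7. It had 0, 133, 7.67, 32.9, 1842 and 66.8 in bone 1 to 6. Fibrous 7 was the sole fibrous library above 1 CPM, and bone 1 the sole bone library below it. The log2 fold change of -6.77 (SE 1.71, adjusted p 0.873 by edgeR) depends on the prior count, because most fibrous libraries were close to 0, and it was -4.47 in XY9274 alone.

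**Figure D2:**
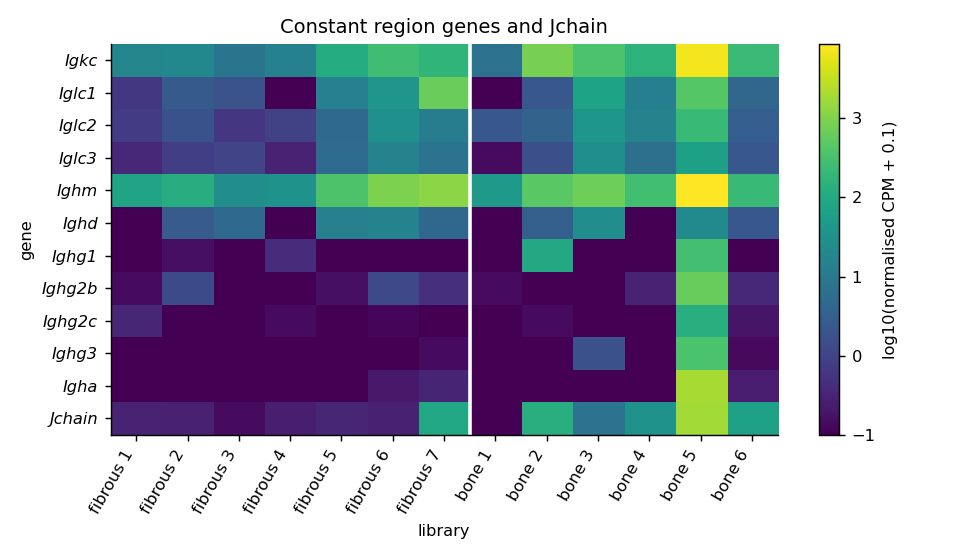
Colour map of log10(normalised CPM + 0.1) for the constant genes other than Iglc4, and Jchain, by library, with fibrous libraries left of bone libraries. Igha, the Ighg genes and Jchain are highest in bone 5, and Iglc1 is highest in fibrous 7.

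Lambda constant genes followed another order. Iglc1, which joins to Iglv1, had 650.1 normalised CPM in fibrous 7 and 37.0 or less in the other fibrous libraries, against 434 in bone 5, 73.3 in bone 3 and 13.5 or less in the others. Fibrous 7 was the highest of all 13. Its log2 fold change was -1.69 (SE 1.60, adjusted p 0.898 by edgeR), and it turned positive, 0.56, in the XY9274 series alone. It was -0.16 without bone 3 and -2.93 without fibrous 5. Iglc2 had 0.514 to 29.5 in fibrous libraries and 2.05 to 209 in bone libraries, with a log2 fold change of -2.93 (SE 0.94, adjusted p 0.873 by edgeR). Iglc3 gave -2.27 (SE 1.19, adjusted p 0.873 by edgeR), -1.15 without bone 3 and -0.94 without the Lin-named libraries. Iglc4 had counts in bone 5 alone.

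Ighd, the IgD constant region found with IgM on naive B cells, had 0 to 16.2 normalised CPM in fibrous libraries and 0 to 26.9 in bone libraries. It was at 0 counts in fibrous 1 and 4 and in bone 1 and 4, and highest in bone 3. Its log2 fold change was -0.62 (SE 1.62, adjusted p 0.960 by edgeR) and turned to 1.23 without bone 3.

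RNA of switched isotypes was found mainly in bone 5 and bone 2, with 155354 and 2321 counts, against at most 67 counts in any other library. Igha, the constant region of IgA, had 1935 normalised CPM in bone 5, from 90264 counts, and at most 0.226 in any other library. It was at 0 counts in 9 libraries. There 3 counts, the limit that a count of 0 allows, would be at most 0.186 CPM before TMM scaling. That highest limit was in bone 4, whose TMM factor of 0.617 would raise it on the normalised scale. Ighg1 had 289 normalised CPM in bone 5 and 96.1 in bone 2, against at most 0.325 elsewhere. Ighg2b, Ighg2c and Ighg3 had 634, 126 and 345 in bone 5 and at most 1.61 in any other library. These 5 genes and Iglc4 did not pass the filter on low counts and were not tested.

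Per exon length, Ighm made up 74.9 to 99.5% of heavy constant RNA in fibrous libraries and 65.7 to 99.9% in bone libraries. Switched isotypes made up 34.0% in bone 5, of which Igha was 19.7 points, Ighg2b 6.39, Ighg3 3.58, Ighg1 3.02 and Ighg2c 1.28. In bone 2 they made up 21.7%, nearly all of it Ighg1. In the other libraries they made up at most 1.42%. Ighd made up 25.1% in fibrous 3, from 133 counts.

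**Figure D3:**
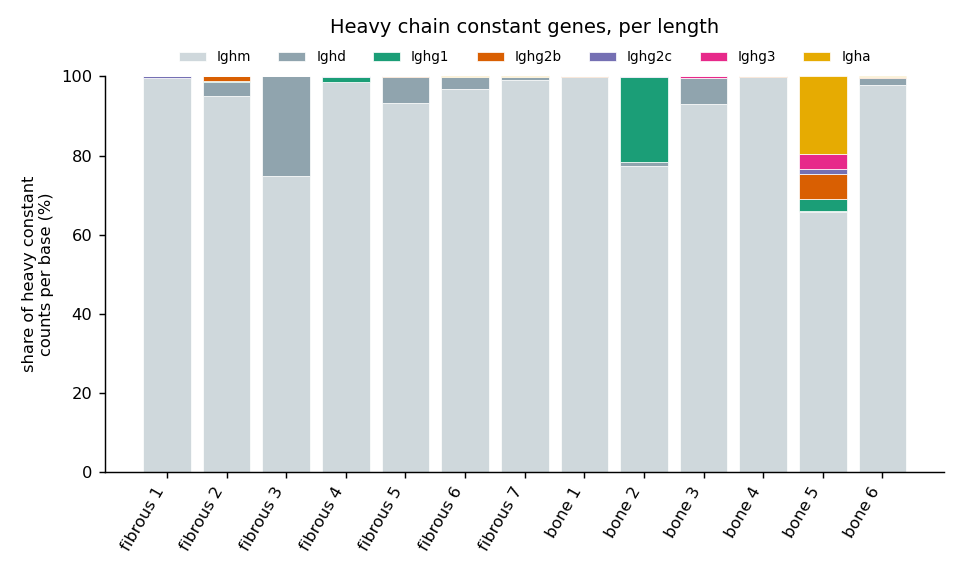
Stacked bars of the share of each heavy constant gene in the heavy constant RNA of each library, in percent after division by transcript length, with fibrous libraries left of bone libraries. Ighm is the main isotype in every library, and switched genes hold 34.0% in bone 5 and 21.7% in bone 2.

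Kappa and lambda use also varied by library. Lambda genes made up 7.72 to 32.2% of light constant RNA per length in fibrous 1 to 6 and 82.3% in fibrous 7. They made up 25.0, 0.992, 32.5, 21.1, 10.5 and 4.38% in bone 1 to 6. Fibrous 7 was lambda dominated, bone 2 almost purely kappa, and the groups overlapped. Jchain RNA per length was 7.89% of heavy constant RNA in fibrous 7 and at most 0.489% in the other fibrous libraries, against 0, 23.3, 1.09, 12.6, 14.8 and 31.8% in bone 1 to 6.

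Over the whole table, edgeR tested 13294 genes and called 0 (0% higher, 0% lower) at an adjusted p under 0.05. Of the 201 members, 52 passed the filter on low counts, and none of these was called. A member could pass through the libraries where it was high, so the 52 do not stand for all 201. All 52 had a log2 fold change below 0, with a median of -2.66, beside 48.1% of all tested genes and a median of 0.03. At an unadjusted p under 0.05, 12 of the 52 were lower and 0 higher in fibrous libraries, where 1.97% of all genes were lower and 2.81% higher. Without bone 5, 45 of 51 tested members were below 0, with a median of -1.87. Without fibrous 1, 50 of 51 were below 0, with a median of -2.55. Without the Lin-named libraries, 48 of 60 were below 0, with a median of -2.46. Limma-voom called 0 members and put 39 of the 52 below 0.

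DESeq2 called 4 of the 52 members lower in fibrous libraries, where it called 0.158% of all genes lower and 1.11% higher. They were Igkc, Iglc2, Igkv4-55 and Igkv15-103. The kappa V gene Igkv4-55 had 0 to 1.22 normalised CPM in fibrous libraries (median 0.0616) and 0 to 172 in bone libraries (median 2.10). Igkv15-103 had 0 to 0.714 in fibrous libraries (median 0) and 0 to 231 in bone libraries (median 0.750). Both were highest in bone 5, and the groups overlapped. DESeq2 gave log2 fold changes of -6.08 and -7.15 with adjusted p-values of 2.11e-04 and 3.81e-04, and edgeR -6.00 (SE 1.37) and -7.15 (SE 1.62) with adjusted p-values of 0.873.

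The V genes with the smallest p-values also included Ighv1-53, Igkv17-121 and Ighv1-41. Their log2 fold changes were -6.53 (SE 1.80), -6.76 (SE 2.43) and -3.50 (SE 1.27), each with an adjusted p of 0.873 by edgeR. Without bone 2, the first was -3.56 and the second -3.74, and in XY9274 alone the second was -2.12.

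The fold change was also compared between the name series. The interaction of series and group was called for 0 members (0% of all genes higher, 0% lower), by edgeR, and no member had an unadjusted p under 0.05. Within L002 all 29 tested members were below 0, beside 50.7% of all tested genes. Within XY9274 129 of 155 members were below 0, beside 57.8% of all tested genes. Groups were smaller there, so the filter on low counts asked for fewer libraries and passed 155 members, against 52 in the main test. A member could pass it in part through bone 5, where members were high. The bone libraries of XY9274 (n = 2) included bone 5, at an immunoglobulin share of 3.18%. Members move together within a library, so these direction counts are not independent, and the XY9274 count was not repeated without bone 5. No member was called in either series.

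V genes tell which antibody genes the captured RNA came from. V counts numbered 337, 865, 234, 287, 1769, 15468 and 43444 in fibrous 1 to 7, and 297, 13507, 5397, 1406, 362422 and 4937 in bone 1 to 6. The number of V genes with at least 1 count was 27, 56, 25, 45, 96, 146 and 133 in fibrous 1 to 7, and 11, 40, 115, 61, 184 and 83 in bone 1 to 6. The deeper libraries broadly showed more V genes, but bone 2 had 40 from 13507 counts, against 115 from 5397 counts in bone 3.

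To compare libraries at 1 common count, V counts were thinned to 234, the lowest count of any library. The expected number of V genes was then 24.5, 49.3, 25.0, 42.3, 74.9, 85.6 and 25.7 in fibrous 1 to 7. It was 10.8, 17.8, 75.1, 47.5, 70.5 and 33.0 in bone 1 to 6. Fibrous 5 and 6 and bone 3 and 5 had the highest values, and bone 1, bone 2, fibrous 1, 3 and 7 the lowest. Thinning equalises counts, not captured molecules. In bone 1, fibrous 1 and fibrous 3, with 234 to 337 V counts, narrow V use and few captured molecules cannot be told apart. The medians were 42.3 in fibrous libraries and 40.2 in bone libraries, and the groups overlapped.

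**Figure D4:**
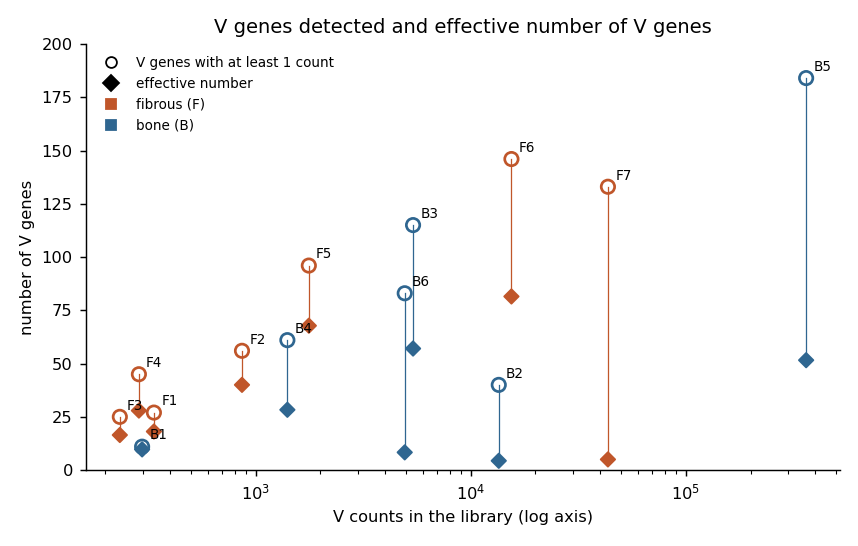
Number of V genes (vertical axis) against V counts on a log axis, 1 pair of joined symbols per library, with fibrous libraries (F) in orange and bone libraries (B) in blue. Open circles are V genes with at least 1 count and filled diamonds the effective number, which is 5.02 in fibrous 7 although 133 V genes were detected there.

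The effective number of V genes, the exponential of the Shannon entropy of V counts, counts how many equally used genes would give the same diversity. It was 18.1, 40.0, 16.5, 27.9, 67.8, 81.5 and 5.02 in fibrous 1 to 7, and 9.72, 4.38, 57.1, 28.3, 51.6 and 8.33 in bone 1 to 6. The lowest values were those of bone 2, fibrous 7 and bone 6, which are not the libraries with the fewest V counts. The top 3 V genes held 86.6% of V counts in fibrous 7, 85.1% in bone 2 and 77.5% in bone 6, against 16.2% in fibrous 6, 15.0% in fibrous 5 and 27.8% in bone 5. V exons are of like length (329 to 501 bases, median 359), and counts per length gave effective numbers of 4.32 to 82.2.

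In fibrous 7, Iglv1 held 26641 counts, 83.2% of light chain V counts (Wilson 95% interval 82.8 to 83.6), and Ighv14-4 held 8216, 71.9% of heavy V counts (71.1 to 72.7). Those are the Iglv1 and Ighv14-4 sequences printed above. Igkv14-126 and Ighv11-2 followed with 2766 and 855 counts. A single heavy and a single light V gene thus held most of the V counts of this library.

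In bone 2, Igkv4-63 held 8193 counts, 72.1% of light V counts (71.3 to 72.9), and Igkv17-121 held 2324, 20.4%. Among its heavy V genes Ighv1-53 held 979 counts, 45.7% (43.6 to 47.8), and Ighv1-39 held 735, 34.3%. In bone 6, Igkv1-110 and Igkv5-43 held 45.0% and 41.6% of light V counts, and Ighv1-53 and Ighv1-26 held 40.5% and 19.0% of heavy V counts. Each of these libraries thus had a pair of leading heavy and a pair of leading light V genes, and Ighv1-53 led the heavy genes of both.

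**Figure D5:**
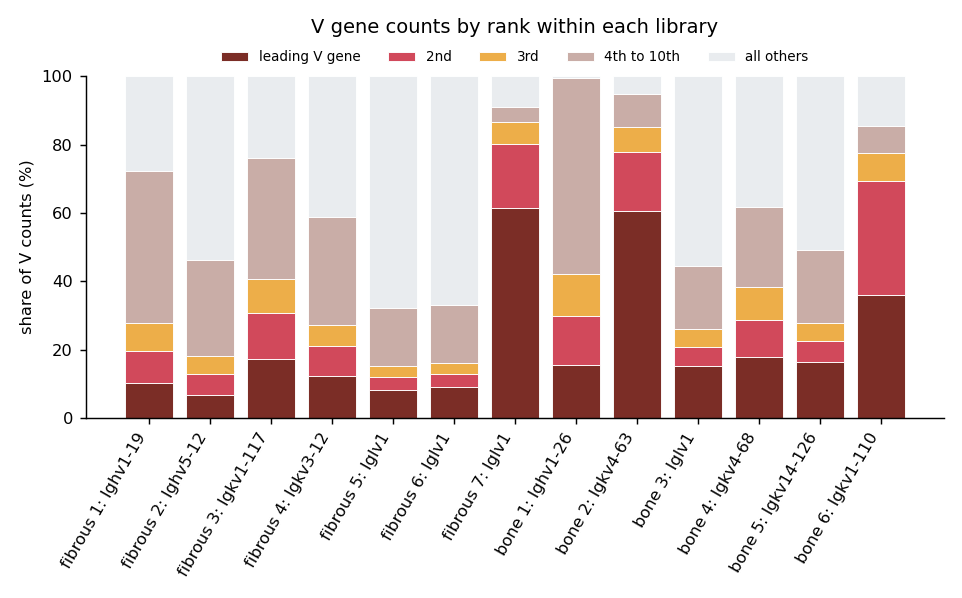
Stacked bars of the share of V counts, in percent, held by the leading V gene, the next ranks and all others in each library, with fibrous libraries left of bone libraries and the leading gene named under each bar. The top 3 genes hold 86.6% in fibrous 7 and 85.1% in bone 2, against 15.0% in fibrous 5 and 16.2% in fibrous 6.

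Bone 5 was broad, with 184 V genes detected, yet it had clear leaders. Igkv14-126 held 59506 counts, 25.0% of light V counts (24.8 to 25.1), and Ighv11-2 held 22441, 18.1% of heavy V counts (17.9 to 18.3). In mice, Ighv11-2 joined with Igkv14-126 is a known antibody of B-1a cells that binds phosphatidylcholine. Iglv1 (18833 counts), Igkv3-2 (17384), Ighv6-3 (13800) and Ighv7-1 (7033) came next.

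Ighv11-2 had counts in 4 libraries, all of the XY9274 series, with 3 in fibrous 6, 855 in fibrous 7, 22441 in bone 5 and 1 in bone 6. Over the 82 members with at least 1000 counts in fibrous 7 or bone 5, fibrous 7 held a median of 1.12% as many counts as bone 5. Most of the 82 reached that limit in bone 5 alone, so a low median was built in and is no baseline for single genes. The percentage was 3.81 for Ighv11-2, 4.65 for Igkv14-126, 5.66 for Jchain, 16.1 for Ighm and 2.73 for Igkc. It was above 100 for 3 members, at 796 for Ighv14-4, 171 for Iglc1 and 141 for Iglv1. For Igha it was 0.0133, for Ighg2b 0.0642 and for Ighg3 0.0124.

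In the remaining libraries the leading gene held 7.06 to 25.8% of the V counts of its chain. Iglv1 led the light V genes of fibrous 5 (142 counts), fibrous 6 (1387) and bone 3 (822), and Igkv4-68 led those of bone 4 (249). In bone 1 a mere 11 V genes were detected, led by Ighv1-26 with 46 counts, and 10 of them had at least 10 counts. The leading gene had 34 counts in fibrous 1 (Ighv1-19), 59 in fibrous 2 (Ighv5-12), 40 in fibrous 3 (Igkv1-117) and 35 in fibrous 4 (Igkv3-12). Next came Ighv1-42 (32) and Ighv1-66 (28) in fibrous 1, Igkv6-15 (51) and Igkv10-95 (46) in fibrous 2, Iglv1 (32) and Igkv13-84 (23) in fibrous 3, and Ighv5-17 (25) and Igkv10-96 (18) in fibrous 4. After the leading gene, Iglv2 (69) and Igkv8-24 (55) came next in fibrous 5, and Igkv6-15 (592) and Iglv2 (524) in fibrous 6. In bone libraries they were Ighv2-4 (43) and Ighv1-41 (36) in bone 1, Iglv2 (303) and Igkv12-46 (277) in bone 3, and Igkv8-24 (152) and Iglv1 (136) in bone 4.

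The Ighv1 family, the largest heavy V family in the mouse, held 10.2% of heavy V counts in fibrous 7, against at least 82.7% in bone 2 and bone 6. In the other libraries it held 37.1 to 73.4%. Of the 188 V members, 174 were detected in fibrous libraries and 187 in bone libraries. Both groups shared 173, which is 99.4% of the fibrous set and 92.5% of the bone set. All 188 had a count in at least 1 library, and annotated V genes absent from the matrix are not counted, so high sharing is partly built in. The same share over all genes was not computed. Without bone 5 the bone libraries had 156. No V gene was detected in all 13 libraries, and 4 were detected in a single library, bone 5.

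Markers of B cells were set beside the immunoglobulin genes. Of 20 pan B cell genes, 18 were tested and 0 called by edgeR, with 13 below 0 and a median log2 fold change of -0.62. Without the Lin-named libraries and in XY9274 alone 13 of 19 were above 0, and with limma-voom 15 of 18. Cd79a, the signalling partner of surface antibody, had 13.7, 21.8, 7.64, 11.9, 102, 216 and 80.5 normalised CPM in fibrous 1 to 7, against 9.11, 35.5, 206, 52.3, 165 and 15.1 in bone 1 to 6. It was highest in fibrous 6 and next in bone 3. Cd74, the invariant chain of antigen presentation and the most abundant of the list, was highest in bone 5, with 29.5 to 340.2 normalised CPM in fibrous libraries and 13.5 to 694 in bone libraries. The summed level of the list was 108 to 1584 in fibrous libraries and 69.7 to 1884 in bone libraries, highest in bone 5 and lowest in fibrous 1 to 4 and bone 1, the libraries that were also lowest in immunoglobulin share. Ms4a1, which encodes CD20, was at 0 counts in bone 1. The part of B cells in the immunoglobulin results was not tested.

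Early B cell genes, such as the surrogate light chain genes Vpreb1 and Igll1, summed to 17.3 to 373 normalised CPM in fibrous libraries and 15.1 to 321 in bone libraries, highest in fibrous 6 and bone 3. All 12 were tested by edgeR and 0 were called, with 8 below 0. This turned to 8 above 0 without the Lin-named libraries or without bone 3, and to 10 above 0 in XY9274 alone or with limma-voom. DESeq2 called Il7r, the interleukin 7 receptor, higher (log2 fold change 5.93, adjusted p 0.0131), where it called 1.11% of all genes higher.

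Of 14 plasma cell genes, 11 were tested by edgeR and 0 called, with 6 below 0, and with limma-voom 4 below 0. Their summed level was 364 to 1140 normalised CPM in fibrous libraries and 368 to 1030 in bone libraries. It was highest in fibrous 2, at an immunoglobulin share of 0.0190%, and next in bone 5. Xbp1, Txndc5, Sdc1 and Edem2 had the highest mean level of the list, and Xbp1 and Sdc1 had counts in all 13 libraries. Tnfrsf17, Mzb1 and Derl3 were chosen after their values were seen. Tnfrsf17, the receptor BCMA of plasma cells, was at 0 counts in 11 libraries and had 2.29 normalised CPM in bone 5. Mzb1, a chaperone of antibody assembly, was highest in bone 3 (71.1), bone 4 (31.7) and fibrous 5 (16.6), all Lin-named, and had 5.57 in bone 5. Derl3, of the secretory pathway, had 0 to 1.11 in fibrous libraries and was highest in bone 5 (8.90) and bone 2 (6.75). The part of plasma cells was not tested.

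Neutrophil genes, markers of another marrow cell, summed to 692 to 24287 normalised CPM in fibrous libraries and 1569 to 96850 in bone libraries, highest in bone 5. All 12 were tested by edgeR, 0 were called, and 12 were below 0, with a median of -1.80. Their part in the immunoglobulin results was not tested.

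Of 9 genes for Fc receptors and antibody transport, 5 were tested by edgeR, 0 were called and 4 were below 0. Fcer1g, the shared signalling chain, had 6.33 to 142 normalised CPM in fibrous libraries and 15.8 to 507 in bone libraries, with a log2 fold change of -1.56 (SE 0.68, adjusted p 0.873 by edgeR). Fcgr3, a low affinity IgG receptor, gave -1.80 (SE 0.63, adjusted p 0.873 by edgeR). Fcgrt, the receptor that recycles IgG, gave 1.15 (SE 0.73, adjusted p 0.873 by edgeR).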

How the data were processed

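The deposited values are raw counts per gene, whole numbers in one matrix of 13 libraries, as the authors made them from polyA RNA (TruSeq libraries, NovaSeq), per the labels. The submitters' processing notes list edgeR, mm10 and hg38 without stating their roles. The aligner, counter and strand setting are not given in the sources analysed. Symbols, coordinates and sequences came from GENCODE mouse release 21 (mm10).

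The main test was edgeR 4.0.16 in R 4.3.3 (TMM, filterByExpr, robust quasi-likelihood test) over all libraries, with terms for group and name series, adjusted by Benjamini-Hochberg with a threshold of 0.05. Log2 fold changes are fibrous over bone. DESeq2 1.42.0 and limma 3.58.1 (voom, sample weights) served as alternatives, as did other scalings, filters, each series alone and each library left out. The fitting script was tested on simulated data.

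Named were all constant genes and Jchain, the 3 V genes with the most counts per library, the V genes with the 5 smallest p-values in each direction, and up to 4 members per list by mean CPM. Lepr, Ighv1-39, Igkv3-2, Ighv6-3, Ighv7-1, Ms4a1, Mzb1, Derl3, Tnfrsf17, Il7r, Cd3d, Cd3e and Cd3g were chosen after their values were seen. The members and the lists were chosen with earlier results of these data known. Isotype shares divide counts by the exon length of the shortest annotated transcript. Shares and diversity carry no test.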

Additional observations from a re-analysis of the deposited data

Results flagged for a closer look

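Of 74 groups of values checked, 41 held a sample far from the rest of its group, 19 of them in bone 5 and 9 in fibrous 7. The V genes checked included leading genes of bone 5, fibrous 7, bone 2 and bone 6, so flags in those libraries were likely beforehand. Values are skewed and genes move together within a library, so no chance rate is given. Some flags rest on few counts, such as Ighg3 in fibrous 7 (2 counts) and Ighg2c in fibrous 1 (6 counts). No cause was tested.

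Bone 5 stood apart with an immunoglobulin share of 3.18%, 362422 V counts, and normalised CPM of 1842 for Jchain, 1935 for Igha, 289 for Ighg1, 634 for Ighg2b, 126 for Ighg2c and 345 for Ighg3. It also stood apart with 8744 for Ighm, 7035 for Igkc, 434 for Iglc1, 209 for Iglc2 and 0.171 for Iglc4. Among its V genes, Ighv11-2 had 481 normalised CPM, Igkv14-126 had 1276, Ighv14-4 had 22.1, Iglv1 had 404, Igkv15-103 had 231 and Igkv4-55 had 172.

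Fibrous 7 stood apart with 43444 V counts, a lambda share of 82.3%, and normalised CPM of 91.4 for Jchain, 650.1 for Iglc1, 0.0376 for Ighg3, 16.1 for Ighv11-2, 52.0 for Igkv14-126, 154 for Ighv14-4 and 501 for Iglv1. Fibrous 6 stood apart with 29.5 for Iglc2, 6.55 for Igkv17-121, 2.62 for Ighv1-53, 2.47 for Igkv1-110 and 1.22 for Igkv4-55. Fibrous 5 had 0.677 for Igkv4-63 and 16.6 for Mzb1, fibrous 4 had 0.325 for Ighg1, and fibrous 1 had 0.234 for Ighg2c. Bone 2 stood apart with 339.5 for Igkv4-63, 96.3 for Igkv17-121 and 30.5 for Ighv1-39, and bone 6 with 50.4 for Igkv5-43.

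J segments are not members, and 10 are in the matrix. Iglj1 had 465 counts in fibrous 7, against 354 in bone 5 and 65 or fewer in every other library. All J segments together had 924 counts in fibrous 7 and 6606 in bone 5.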

How the results depend on the processing

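DESeq2 called 4 members lower and 1 early B cell gene higher, where edgeR called 0 of either; the cause was not tested. Of the other counts, shares and diversity values, 417 gave the same count of calls, or moved by less than the SD between libraries. Many of these compare 0 calls with 0 calls, which was nearly fixed because edgeR called 0 genes of the whole table. For the mean bone share the SD was 1.26%, against 0.0839% without bone 5. A fall from 0.607% to 0.0923% without bone 5 therefore counted as the same. Among named members, the log2 fold change of Ighd reversed to 0.25 with limma-voom, 0.10 without the Lin-named libraries and 1.23 without bone 3, and lay between -1.48 and 1.23 with each library left out. Iglc1 reversed to 1.98 with limma-voom, 0.20 with group alone, 0.56 in XY9274 alone and 0.44 without the Lin-named libraries. In the other named member settings 236 kept direction and side of the threshold, and 4 passed it, all with DESeq2. The cause was not tested.

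The mean share in fibrous libraries lay between 0.0485 and 0.107%, and in bone libraries between 0.0923 and 0.726%, with each library left out. The median effective number of V genes lay between 23.0 and 34.0 in fibrous libraries and between 9.72 and 28.3 in bone libraries. Without the Lin-named libraries the bone median was 9.02. No paired analysis was possible because replicate numbers were given in accession order and pair no libraries. Depth limits the V results most in fibrous 1, 3 and 4 and bone 1, which had 234 to 337 V counts. Per length weighting and leaving out the Lin-named libraries from shares and diversity were chosen after seeing the data.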

Other observations

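Genes of class switching and hypermutation were measured beside the isotypes. Of 8 genes, 7 were tested by edgeR and 0 called, with 3 below 0 (6 of 8 in XY9274 alone), and their summed level was 332 to 634 normalised CPM in fibrous libraries and 305 to 726 in bone libraries. Of 10 T cell genes, 3 were tested by edgeR and 0 called, and their summed level was 6.94 to 24.2 in fibrous libraries and 4.61 to 30.0 in bone libraries. Cd3e, a chain of the T cell receptor complex, was at 0 counts in 10 libraries, Cd3g in 11 and Cd3d in 8. Trac, of the same list, had counts in 9 libraries, with up to 151 counts.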
